A study of Mus musculus with 4 samples.

Results

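The nuclear genes of oxidative phosphorylation were followed in open chromatin of retinal endothelial cells from Zeb1-knockdown and control mice. Genes were chosen by symbol among the 21631 protein-coding genes on chromosomes 1 to 19 and X of the RefSeq annotation of mm10 (GRCm38.p6). Symbols starting with Nduf, Uqcr, Atp5, Cox4i, Cox5, Cox6, Cox7 or Cox8 were taken, together with Sdha, Sdhb, Sdhc and Sdhd, which gave 96 genes. By name these were 41 complex I genes, 8 complex I assembly factors (Ndufaf), 4 complex II genes, 8 complex III genes, 18 complex IV genes and 17 complex V genes. The Ndufaf genes and Cox7a2l encode helpers of assembly rather than structural subunits. The other 87 of the 96 were counted as structural subunit genes by symbol alone, with Ndufa4l2, Ndufb4b and Ndufb4c among them. No measured value entered the choice.

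Chromatin was profiled with ATAC-seq, in which a transposase inserts adapters into accessible DNA. There were 2 libraries of the Zeb1-knockdown genotype (CKO in the sample titles) and 2 control libraries. All 4 came from C57BL/6 mice labelled P16, and 2000 endothelial cells sorted by FACS from retina entered each library. The allele, the Cre or other driver and the number of animals behind a library are not given in the sources used here, so p-values measure the spread between these libraries, which may be technical. A gene was counted as held by a library when at least 1 bp of a deposited peak lay within 1 kb of either end of the gene. Where several peaks did, the strongest by the authors' −log10 q was used. Its rank is given as the percent of that library's own list that was at least as strong, so that a small percent is a strong peak.

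Oxidative phosphorylation couples electron transport along the inner mitochondrial membrane to the synthesis of ATP. Complexes I and II feed electrons from NADH and succinate to ubiquinone, complex III passes them to cytochrome c, complex IV reduces oxygen, and complex V, the ATP synthase, uses the proton gradient built on the way. Most subunits are encoded in the nucleus by genes active in nearly every cell, and their promoters are known targets of NRF1, GABP and YY1. Several complex IV subunits exist as a common and a tissue-restricted isoform. Endothelial cells are known to draw much of their ATP from glycolysis while still keeping working mitochondria. Zeb1 is a zinc-finger transcription factor that binds E2-box sequences and is best known for repressing epithelial genes.

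The lists differed in length before any gene was considered. Knockdown libraries 1 and 2 listed 13689 and 19886 peaks, against 7608 and 13672 peaks in control libraries 1 and 2. Control 1 stood apart as the shortest list. Read depth is unknown, so an unlisted peak cannot be told apart from too few reads. Of 12 endothelial markers, 7 were held by each knockdown library, against 4 in control 1 and 6 in control 2. Cdh5, Cldn5, Clec14a and Tie1 were held by all 4 libraries, while Pecam1, Erg, Emcn, Tek and Egfl7 were held by none. No library held any of 6 pericyte and smooth muscle markers. Of 5 markers of Muller glia and astrocytes, knockdown 1 and knockdown 2 held 1 and 2, against 2 in control 1 and 1 in control 2, and of 5 leukocyte markers only Itgam was held, in control 1. Photoreceptor markers followed the replicate number: of 12, knockdown 1 and knockdown 2 held 0 and 6, against 0 and 7 in control 1 and control 2. Zeb1 itself had a gene-end peak in every library except control 1, which says nothing about the deletion.

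Most oxidative phosphorylation genes carried a peak at a gene end, and more of them did so in the knockdown libraries than in the controls. Knockdown 1 held 69 of the 96 genes (71.9%) and knockdown 2 held 72 (75%), against 30 (31.2%) in control 1 and 61 (63.5%) in control 2. The knockdown libraries lay close together and above both controls, and most of the gap came from control 1. Over all protein-coding genes the shares were 39.5% and 45.2% in knockdown 1 and knockdown 2, against 22.0% and 38.5% in control 1 and control 2. The same order of groups was therefore present across the annotation. Means were 70.5 ± 2.12 genes in knockdown and 45.5 ± 21.9 genes in control (SD, n = 2 each), a difference of 25 genes with a two-sided exact permutation p of 0.333. That is the smallest p that 2 libraries against 2 can give, over 6 arrangements. The difference was 9.5 genes without control 1 and 40.5 genes without control 2. It was 5.5 genes (exact permutation p = 1.00) when each list was limited to its 7608 strongest peaks, where knockdown 1 and knockdown 2 held 42 genes each, against 30 in control 1 and 43 in control 2. All genes flattened likewise under those equal lists, to 26.5% and 25.7% in knockdown 1 and knockdown 2, against 22.0% and 26% in control 1 and control 2. A site open in fewer cells and a site less open in each cell cannot be told apart in these bulk libraries.

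**Figure D1:**
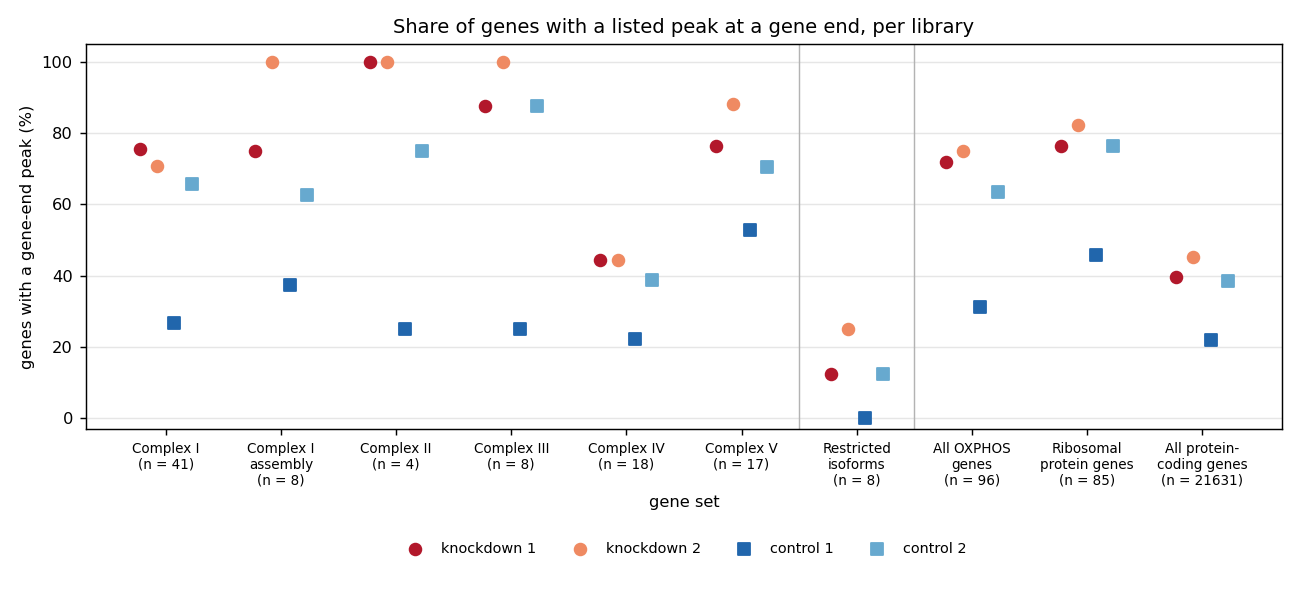
Percent of genes (vertical axis) with a listed peak within 1 kb of a gene end, for each complex, for the tissue-restricted isoforms, for all 96 oxidative phosphorylation genes, for 85 ribosomal protein genes and for all protein-coding genes. Each point is 1 library, circles for knockdown and squares for control. Control 1 is the lowest point of every group shown, and complex IV is the lowest of the 5 complexes in every library.

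Complex I, the NADH dehydrogenase and the largest of the complexes, had 31 and 29 of its 41 genes held in knockdown 1 and knockdown 2, against 11 in control 1 and 27 in control 2. All 4 libraries held 11 genes. These included Ndufv1, which binds the flavin that accepts electrons from NADH, and Ndufs8 and Ndufv2, which carry iron-sulfur clusters. Ndufs8 ranked at 11% and 1.25% in knockdown 1 and knockdown 2, against 35.2% and 3.06% in control 1 and control 2. Ndufv1 stood at 10.4% and 4.33% in the knockdown libraries and at 33.8% and 5.72% in the controls. Both were therefore among the stronger peaks of every library except control 1, where they were weaker. Ndufb11, an X-linked membrane-arm subunit, was in the stronger part of all 4 lists, at 24.6% and 6.57% in knockdown and 9.82% and 4.67% in control. At the other end stood Ndufa6, an accessory subunit, with 29.5% and 14.9% in knockdown 1 and knockdown 2, against 91.4% and 44.5% in control 1 and control 2.

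The complex I peak with the greatest smallest width over the 4 libraries was at Ndufb5, a membrane-arm subunit (chr3:32737057-32751559). It spanned 531 and 550 bp in knockdown 1 and knockdown 2, against 523 and 410 bp in control 1 and control 2. The peak covered the annotated start in 3 libraries and ended 3 bp short of it in control 2. It also lay within 1 kb of an end of Mrpl47, a mitochondrial ribosomal protein gene. The promoter from 250 bases before to 50 bases after the start is printed from RefSeq (GRCm38.p6) to show the sequence under this peak. It holds none of the 7 motifs searched. They were those of NRF1, ETS factors, YY1, CRE-binding factors, SP and KLF factors, the CCAAT box (searched only as CCAATCA) and the E2-box.
Ndufb5, chr3:32736813-32737112 (+ strand): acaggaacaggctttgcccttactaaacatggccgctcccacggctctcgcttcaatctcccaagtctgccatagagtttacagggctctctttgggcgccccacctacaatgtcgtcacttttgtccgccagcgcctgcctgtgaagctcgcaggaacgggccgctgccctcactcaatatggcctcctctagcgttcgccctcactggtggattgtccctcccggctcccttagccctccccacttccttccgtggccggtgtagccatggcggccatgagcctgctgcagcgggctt

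Among complex I genes, 15 were held by every library except control 1. They included Ndufab1, the mitochondrial acyl carrier protein, and the iron-sulfur subunit gene Ndufs7. Another 2 were knockdown-only, meaning that both knockdown libraries listed a peak and no control did. Ndufs1 (chr1:63143592-63176822), the large iron-sulfur subunit of the electron input module, had peaks of 206 bp at 69.3% in knockdown 1 and 842 bp at 84.5% in knockdown 2. That peak also lay within 1 kb of an end of Eef1b2, a translation elongation factor gene. Ndufa10 (chr1:92439486-92473825), an accessory subunit, had peaks of 405 bp at 61.1% and 415 bp at 58.9% in knockdown 1 and knockdown 2. All of these peaks were below the middle of their lists. Single libraries alone held 5 genes, namely Ndufa7, Ndufb10 and Ndufc1 in knockdown 1, Ndufa4l2 in knockdown 2 and Ndufs3 in control 2.

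Of the 8 complex I assembly factors, knockdown 1 held 6 and knockdown 2 held all 8, against 3 in control 1 and 5 in control 2. Ndufaf7, a methyltransferase needed for complex I assembly, and Ndufaf8 were held by all 4 libraries. Ndufaf8 had widths of 459 and 542 bp in knockdown and 533 and 502 bp in control, so the groups overlapped. Ndufaf6 (chr4:11048991-11076237) was knockdown-only, with 305 bp at 87.4% in knockdown 1 and 507 bp at 97.6% in knockdown 2, near the bottom of both lists. Ndufaf5, an arginine hydroxylase of Ndufs7, was held only by the replicate 2 libraries, with 531 bp at 81.3% in knockdown 2 and 226 bp at 89.3% in control 2. Ndufaf4 was missing from control 2 alone, and Ndufaf1 was held by knockdown 2 alone.

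Complex II, succinate dehydrogenase, had all 4 genes held in both knockdown libraries, against 1 in control 1 and 3 in control 2. Sdhb, the iron-sulfur subunit (chr4:140961271-140979198), was held throughout. It ranked at 4.08% and 2.40% in knockdown 1 and knockdown 2, against 39.7% and 2.49% in control 1 and control 2. Its widths were 411 and 363 bp in knockdown and 311 and 359 bp in control, with both knockdown widths above both control widths. Sdha, the flavoprotein subunit, ranked at 27.2% and 81.7% in knockdown and at 93.5% in control 2, and was unlisted in control 1. Sdhd, a membrane anchor, ranked at 29.5% and 32.5% in knockdown and at 51.0% in control 2, and was also unlisted in control 1. Sdhc, the other membrane anchor (chr1:171129157-171150640), was knockdown-only with 200 bp at 63.2% in knockdown 1 and 274 bp at 43.9% in knockdown 2. Sdhb was therefore the only gene of the complex in all 4 lists, and its promoter is printed with exact motif matches in capitals. They are CAGGTG, the reverse complement of the E2-box CACCTG, at base 27, CCCCGCCC, the reverse complement of the SP and KLF motif GGGCGGGG, at bases 97 and 117, and the NRF1 motif GCATGCGC at base 197, counted from 1 at the 5′ end.
Sdhb, chr4:140961021-140961320 (+ strand): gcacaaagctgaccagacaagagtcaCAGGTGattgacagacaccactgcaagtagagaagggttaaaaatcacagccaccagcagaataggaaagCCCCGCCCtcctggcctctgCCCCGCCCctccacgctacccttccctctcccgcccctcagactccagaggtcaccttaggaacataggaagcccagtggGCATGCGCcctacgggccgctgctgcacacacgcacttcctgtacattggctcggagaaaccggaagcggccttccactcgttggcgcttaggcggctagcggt

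Complex III, the cytochrome c reductase, had 7 and 8 of 8 genes held in knockdown 1 and knockdown 2, against 2 in control 1 and 7 in control 2. Uqcrq, a small subunit near the ubiquinone site, and Uqcrfs1, the Rieske iron-sulfur protein, were the 2 genes in all 4 lists. Uqcrq (chr11:53427922-53430831) ranked at 3.44% and 4.65% in knockdown 1 and knockdown 2, against 16.9% and 19.8% in control 1 and control 2. Its widths were 665 and 667 bp in knockdown and 589 and 538 bp in control. Both measures separated the groups, although ranks from lists of unequal length show no change by themselves. Gdf9, a growth factor gene, shares this peak. The core subunit genes Uqcrc1 and Uqcrc2, together with Uqcrb and Uqcrh, were held by every library except control 1. Uqcr11 (chr10:80402997-80406821), a small subunit, was knockdown-only, with 298 bp at 71.1% in knockdown 1 and 421 bp at 91.6% in knockdown 2. Uqcr10, another small subunit, was held only by the replicate 2 libraries, with 488 bp at 47.2% in knockdown 2 and 237 bp at 65.1% in control 2. Uqcrfs1 had widths of 355 and 353 bp in knockdown, against 253 and 347 bp in control. Its promoter is printed as that of the complex III member chosen by width and listed in the promoter table, with the CRE palindrome TGACGTCA in capitals at base 222.
Uqcrfs1, chr13:30545267-30545566 (- strand): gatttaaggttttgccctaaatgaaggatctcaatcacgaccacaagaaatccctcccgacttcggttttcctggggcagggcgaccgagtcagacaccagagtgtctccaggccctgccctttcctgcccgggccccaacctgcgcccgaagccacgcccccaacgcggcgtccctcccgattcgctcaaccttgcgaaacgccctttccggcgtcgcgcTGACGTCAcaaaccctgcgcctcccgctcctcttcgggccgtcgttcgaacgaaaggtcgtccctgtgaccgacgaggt

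Complex IV, cytochrome c oxidase, had the lowest share of held genes of the 5 complexes in all 4 libraries. Each knockdown library held 8 of 18, against 4 in control 1 and 7 in control 2. The 18 include tissue-restricted isoforms, and also Cox5a and Cox7a2, which had peaks at their starts but not at a gene end. Common isoforms were listed and their restricted counterparts were not for some of its subunits, but not for all. Cox4i1, the common form of subunit IV, was in all 4 lists, while Cox4i2, the form known from lung and hypoxia, was in none. Cox4i1 ranked unevenly, at 70.2% and 23.7% in knockdown 1 and knockdown 2 and at 16.7% and 81.5% in control 1 and control 2. Cox6a1 and Cox6b1, both common forms, were held by all libraries except control 1. Their counterparts Cox6a2 of muscle and Cox6b2 of testis were unlisted everywhere. Cox8a was in all 4 lists at 18.8% and 7.32% in knockdown and 17.9% and 29.9% in control, and Cox8b of muscle and Cox8c of testis were unlisted. Subunits VIIa and VIIb did not show this order at gene ends. The common forms Cox7a2 and Cox7b had no gene-end peak in any library, and neither had Cox7b2 of testis. Cox7a2 did have a peak at its annotated start in all 4 libraries, inside its annotated gene ends. That peak ranked at 18.3% and 28.5% in knockdown 1 and knockdown 2, against 55.3% and 31.6% in control 1 and control 2. Cox7a1 of heart and muscle was listed in all libraries except control 1, at 74.6% and 86.9% in knockdown and 38.0% in control 2. The Cox7a1 peaks were narrow, with 200 and 217 bp in knockdown and 287 bp in control 2.

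Cox7a2l, a factor of respiratory supercomplex assembly, was held by all libraries except control 2. Its peaks spanned 546 and 478 bp in knockdown 1 and knockdown 2 and 1069 bp in control 1. Cox6c, which has no restricted form among these genes, had no gene-end peak. Counting Ndufa4l2, which is induced by hypoxia, 8 restricted isoforms were followed, of which 1 and 2 were held in knockdown 1 and knockdown 2, against 0 in control 1 and 1 in control 2. Ndufa4l2 had only a 200 bp peak at 94.8% in knockdown 2, while Ndufa4 was held by all libraries except control 1. With the restricted isoforms left out, the knockdown libraries held 77.3% and 79.5% of the remaining 88 genes, against 34.1% in control 1 and 68.2% in control 2. The next 4 promoters set the held Cox8a beside the unlisted Cox6b2, Cox7b and Cox7b2. Capitals mark ACTTCCGG, the reverse complement of the ETS motif CCGGAAGT, at bases 245 and 282 and TGATTGG, the reverse complement of the CCAAT motif CCAATCA, at base 78 of Cox8a. They also mark GGGCGGGG at base 58 of Cox6b2 and TGATTGG at base 112 of Cox7b2. The shorter letters CCAAT and their reverse complement were not searched and are left unmarked. GC content was 56.0% for Cox8a, 55.7% for Cox6b2, 43.3% for Cox7b and 48.7% for Cox7b2. The ratio of observed to expected CpG was 0.842 for Cox8a, 0.432 for Cox6b2, 0.368 for Cox7b and 0.564 for Cox7b2.
Cox8a, chr19:7217567-7217866 (- strand): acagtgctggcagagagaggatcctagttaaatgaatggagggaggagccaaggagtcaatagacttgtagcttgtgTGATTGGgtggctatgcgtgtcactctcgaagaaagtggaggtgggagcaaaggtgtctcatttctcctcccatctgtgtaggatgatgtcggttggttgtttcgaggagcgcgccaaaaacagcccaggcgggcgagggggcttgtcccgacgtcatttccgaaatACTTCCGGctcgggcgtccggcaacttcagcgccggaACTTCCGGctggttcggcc
Cox6b2, chr7:4753045-4753344 (- strand): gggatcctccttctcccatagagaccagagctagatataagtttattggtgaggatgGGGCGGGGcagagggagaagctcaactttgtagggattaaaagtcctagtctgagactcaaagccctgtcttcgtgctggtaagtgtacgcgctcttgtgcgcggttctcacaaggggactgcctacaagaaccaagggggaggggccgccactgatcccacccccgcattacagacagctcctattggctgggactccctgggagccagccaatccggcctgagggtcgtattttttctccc
Cox7b, chrX:106015450-106015749 (+ strand): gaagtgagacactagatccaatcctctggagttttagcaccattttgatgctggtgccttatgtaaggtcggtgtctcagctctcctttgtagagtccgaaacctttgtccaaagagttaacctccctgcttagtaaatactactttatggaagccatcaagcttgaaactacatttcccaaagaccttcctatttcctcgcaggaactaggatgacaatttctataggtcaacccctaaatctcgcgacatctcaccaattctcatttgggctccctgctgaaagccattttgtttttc
Cox7b2, chr5:71548156-71548455 (- strand): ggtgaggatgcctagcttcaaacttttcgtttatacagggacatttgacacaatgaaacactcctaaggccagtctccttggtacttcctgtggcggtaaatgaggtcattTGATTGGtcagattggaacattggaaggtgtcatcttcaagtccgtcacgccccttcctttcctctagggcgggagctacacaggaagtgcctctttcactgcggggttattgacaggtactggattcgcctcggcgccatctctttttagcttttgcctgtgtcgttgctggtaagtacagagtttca

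Complex V, the ATP synthase, had 13 and 15 of 17 genes held in knockdown 1 and knockdown 2, against 9 in control 1 and 12 in control 2. It held the 2 genes whose weakest rank over the 4 libraries was best, Atp5g1 and Atp5b. Atp5g1 (chr11:96072793-96075694), which encodes the c subunit of the rotating ring, ranked at 1.45% and 1.55% in knockdown 1 and knockdown 2, against 7.75% and 4.15% in control 1 and control 2. Its widths were 709 and 737 bp in knockdown and 613 and 687 bp in control. Atp5b, the catalytic beta subunit, ranked at 7.78% and 1.90% in knockdown and at 11.1% and 4.13% in control. It was 499 and 512 bp wide in knockdown, against 438 and 459 bp in control. For both genes the knockdown peaks were wider in both libraries, and neither gene changed its listing. The Atp5g1 promoter is printed because its weakest rank was the best and its smallest width the greatest among the 28 genes held throughout. It holds none of the 7 motifs as searched. The shorter letters CCAAT, not followed by CA, do occur in it.
Atp5g1, chr11:96075582-96075881 (- strand): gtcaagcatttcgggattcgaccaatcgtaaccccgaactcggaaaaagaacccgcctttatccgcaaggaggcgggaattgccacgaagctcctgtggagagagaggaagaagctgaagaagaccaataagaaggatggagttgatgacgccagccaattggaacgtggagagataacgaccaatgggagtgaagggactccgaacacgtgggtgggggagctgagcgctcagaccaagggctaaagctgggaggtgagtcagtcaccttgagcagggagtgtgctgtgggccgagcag

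The 3 genes of the c subunit encode the same mature protein and differed in their listing. Atp5g1 and Atp5g2 were in all 4 lists, and Atp5g3 (chr2:73908447-73912464) was knockdown-only. Atp5g2 ranked at 22.3% and 33.6% in knockdown 1 and knockdown 2, against 56.1% and 30.4% in control 1 and control 2. Its widths were 1118 and 1054 bp in knockdown and 282 and 1146 bp in control, so control 1 alone had a narrow peak. Atp5g3 had peaks of 344 bp at 92.9% in knockdown 1 and 528 bp at 63.8% in knockdown 2. Atp5k (chr5:108433246-108434399) and Atp5l (chr9:44913248-44920742), the e and g subunits of the membrane part, were also knockdown-only. Atp5k had 263 bp at 34.6% and 442 bp at 40.1% in knockdown 1 and knockdown 2, the only knockdown-only gene of the 8 above the middle of both lists. Atp5l had 213 bp at 80.0% and 200 bp at 83.6%.

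The peripheral stalk and the central stalk of the ATP synthase were unevenly listed. Atp5o, the oligomycin sensitivity protein at the top of the stalk, was held only by the replicate 2 libraries, with 286 bp at 46.2% in knockdown 2 and 228 bp at 44.8% in control 2. Atp5j2, the f subunit, showed the same listing, with 234 bp at 60.1% in knockdown 2 and 249 bp at 46.6% in control 2. Photoreceptor markers were also listed by the replicate number, and their part in these listings was not tested. Atp5pb, the b subunit of the stalk, was in all 4 lists at 20.7% and 34.4% in knockdown, against 78.9% and 60.9% in control. Atp5c1, the gamma subunit of the central stalk, was held throughout at 90.8% and 44.9% in knockdown and 75.4% and 44.3% in control. Atp5mpl, a small membrane subunit, was in all lists at 53.9% and 78.8% in knockdown and 22.5% and 57.6% in control. Atp5e, the epsilon subunit, was strong where listed, at 13.5% and 1.38% in knockdown and 3.96% in control 2, and was missing from control 1. Atp5a1, the alpha subunit, had no gene-end peak in any library.

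**Figure D2:**
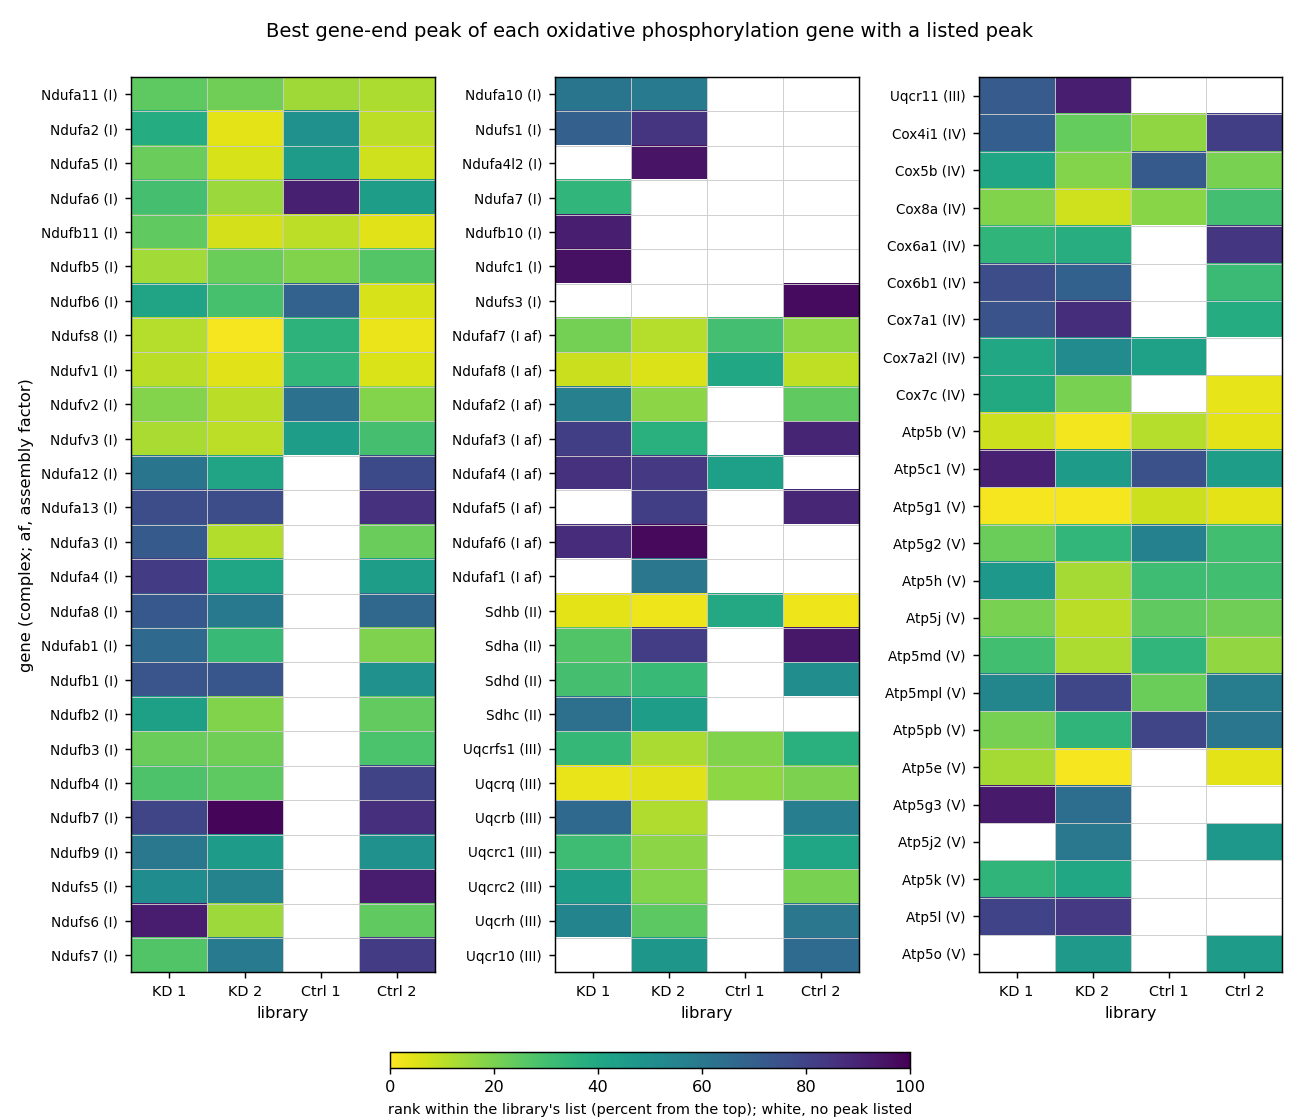
Rank of the strongest gene-end peak of each of the 76 genes with a peak in any library (rows, with the complex in brackets) in each library (columns), as percent from the top of that library's own list. Yellow is strong, dark is weak and white means that no peak was listed; the 28 genes filled in all 4 columns stand beside another 28 that are white only in control 1.

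The listing across libraries sorted the 96 genes into a few classes. All 4 libraries held 28 genes (29.2%), against 20.9% of all protein-coding genes. Another 28 genes (29.2%) were held by every library except control 1, against 12.6% of all genes. Without control 1 the genes held throughout therefore numbered 56 (58.3%, against 33.5% of all genes). With peaks of −log10 q of at least 3 they numbered 18 (18.8%, against 12.6% of all genes). No library held 20 genes (20.8%), against 51.5% of all genes. Knockdown-only listing applied to 8 genes (8.33%), namely Ndufs1, Ndufa10, Ndufaf6, Sdhc, Uqcr11, Atp5g3, Atp5k and Atp5l, against 3.80% of all genes. Control-only listing applied to 0 genes, against 0.0324% of all genes, which is 7 of 21631. The count was 1 without control 1, where 1.23% of all genes were control-only, and 1 with equal lists of 7608 peaks, where 0.536% were. Only the replicate 2 libraries held 4 genes (4.17%), against 2.92% of all genes. Among genes with a peak in any library, knockdown-only listing made up 10.5% of 76 oxidative phosphorylation genes and 7.82% of 10499 genes.

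Knockdown-only genes came from each complex except complex IV and were mostly weak peaks. For 6 of the 8 both knockdown peaks ranked below the middle of their lists. Their median rank was 70.2% in knockdown 1 and 73.7% in knockdown 2, and for all 821 knockdown-only genes it was 73.5% and 63.8%. Single genes were not tested, since 2 libraries against 2 cannot give an exact permutation p below 0.333. Control 2 limited the size of the class. Without that library 36 genes were knockdown-only, among them all 8, and the share over all genes was 16.4%. Without control 1 the class held 10 genes, against 4.16% of all genes. With each list limited to its 7608 strongest peaks, 3 genes were knockdown-only (Cox6a1, Ndufb4 and Uqcrh), none of the 8 remained, and the share over all genes was 1.48%. With peaks of −log10 q of at least 3 there were again 8 knockdown-only genes, against 3.86% of all genes, but only Atp5k, Ndufa10 and Sdhc were shared with the list above. With a window of 0 kb there were 6, against 3.53% of all genes, and 4 of the 8 remained (Atp5k, Ndufa10, Sdhc and Uqcr11). A window of 3 kb gave 7, against 4.11% of all genes, which were the 8 without Atp5k.

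**Figure D3:**
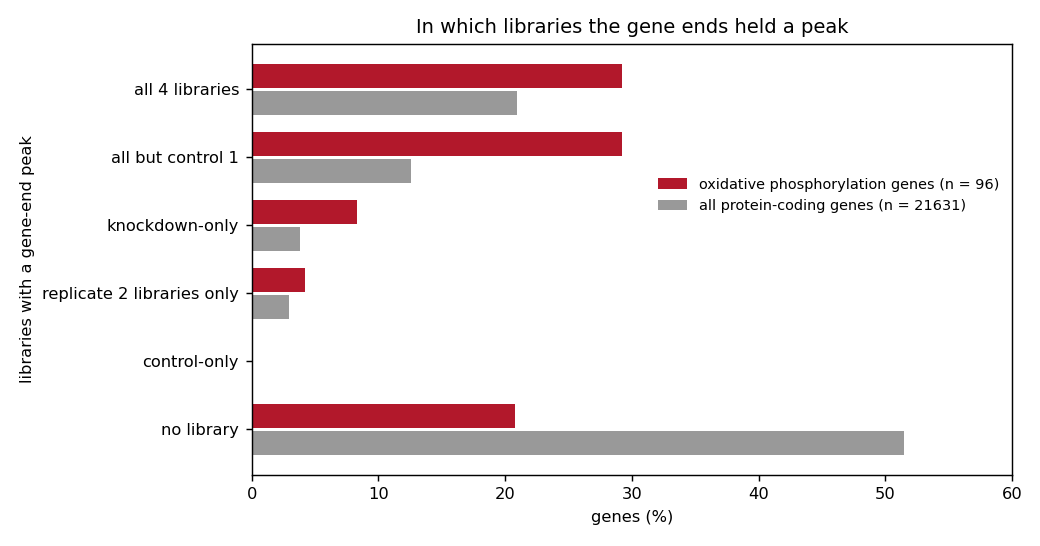
Percent of genes (horizontal axis) in each class of listing, for the 96 oxidative phosphorylation genes (red) and all 21631 protein-coding genes (grey). Rarer classes are not drawn; the upper 2 classes reach 29.2% each for oxidative phosphorylation genes, and control-only is at 0 for them.

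Knockdown 1 and control 2 had lists of nearly the same length, 13689 and 13672 peaks, which allows a direct look at their listings. Both held 56 of the 96 genes (58.3%), against 34.1% of all genes. Knockdown 1 and not control 2 held 13 genes (13.5%), against 5.38% of all genes. Control 2 and not knockdown 1 held 5 genes (5.21%), against 4.35% of all genes. The 13 were the 8 knockdown-only genes with Cox7a2l, Ndufa7, Ndufaf4, Ndufb10 and Ndufc1. The 5 were Ndufs3, a core subunit gene of complex I, and the 4 genes of the replicate 2 libraries, Atp5j2, Atp5o, Ndufaf5 and Uqcr10. This is 1 library against 1 and has no replicate check, and the libraries also differ in photoreceptor markers, at 0 of 12 in knockdown 1 and 7 of 12 in control 2.

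Peaks at oxidative phosphorylation genes were wider in the knockdown libraries. Their median width was 425 and 427 bp in knockdown 1 and knockdown 2, against 329.5 and 359 bp in control 1 and control 2. Means of these medians were 426 ± 1.41 bp in knockdown and 344 ± 20.9 bp in control (SD, n = 2 each). The difference of 81.75 bp had a two-sided exact permutation p of 0.333, again the smallest possible. All genes showed the same order, with medians of 520 and 479 bp in knockdown, against 421 and 396 bp in control. In every library the oxidative phosphorylation peaks were therefore narrower at the median than gene-end peaks at large. Over the 28 genes held throughout, the medians were 507.5 and 441 bp in knockdown and 329.5 and 386 bp in control. All 4529 genes held throughout showed the same order, with 589 and 564 bp in knockdown and 426 and 457 bp in control.

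A width of at least 1000 bp was reached by Atp5g2, Atp5j and Ndufaf3 in knockdown 1, by these and Ndufa11 and Ndufa13 in knockdown 2, by Cox7a2l in control 1 and by Atp5g2 in control 2. These were 4.35% and 6.94% of the held genes in knockdown, against 3.33% and 1.64% in control. Over all held genes the shares were 9.13% and 8.16% in knockdown, against 4.09% and 4.94% in control. Atp5j, the coupling factor of the stalk, had 1085 and 1042 bp in knockdown and 296 and 993 bp in control. Its peak is shared with Gabpa, which encodes the DNA-binding subunit of GABP, and the gene ranked at 20.1% and 10.5% in knockdown and 24.3% and 21.5% in control. Ndufaf3, a factor of ubiquinone-module assembly, had 1321 and 1341 bp in knockdown and 823 bp in control 2. Peaks at the lower limit of 200 bp were found for 5 and 2 genes in knockdown 1 and knockdown 2, against 2 in each control.

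**Figure D4:**
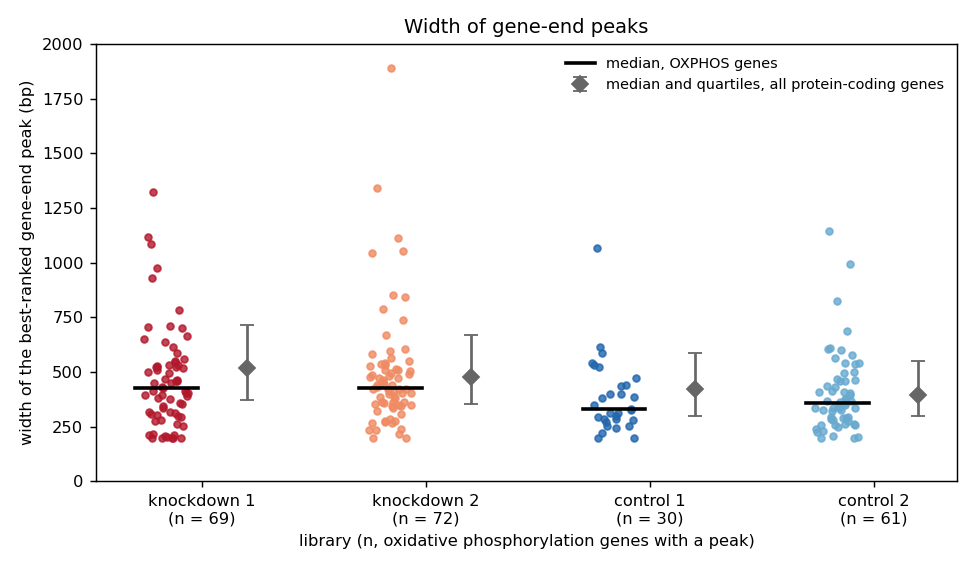
Width in bp (vertical axis) of the strongest gene-end peak of each held gene, 1 point per oxidative phosphorylation gene, for each library. The black line is their median, which is 425 and 427 bp in knockdown and 329.5 and 359 bp in control, and the grey diamond with bars gives the median and quartiles of all protein-coding genes.

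Ranks within each list did not separate the groups. The median rank of held oxidative phosphorylation genes was 40.8% and 30.8% in knockdown 1 and knockdown 2, against 34.8% and 30.4% in control 1 and control 2. All genes with a gene-end peak stood at 38.0% and 32.5% in knockdown and 36.4% and 36.6% in control. The difference of 3.18 percentage points between group means had an exact permutation p of 0.667. It turned to −10.4 points over the 28 genes held throughout and to −1.81 points without knockdown 1. Within the strongest 10% of a list stood 5 and 13 oxidative phosphorylation genes in knockdown 1 and knockdown 2, against 2 and 12 in control 1 and control 2. These were 7.25% and 18.1% of the held genes in knockdown, against 6.67% and 19.7% in control. Over all held genes the shares were 14.9% and 19.4% in knockdown, against 14.2% and 16.8% in control.

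Nearly all of these peaks were at the start of the gene. A start with strand was available from the RefSeq promoter table for 78 of the 96 genes. The strongest gene-end peak lay within 1 kb of the start for 59 of 59 held genes in knockdown 1 and 60 of 61 in knockdown 2, against 25 of 26 in control 1 and 53 of 54 in control 2. Those shares were 100% and 98.4% in knockdown and 96.2% and 98.1% in control, where all genes had 92.3% and 91.6% in knockdown and 92.4% and 92.1% in control. The exception in these 3 libraries was Ndufb6, a membrane-arm subunit gene whose strongest peak lay at its far end, beside Topors. A peak at the Ndufb6 start was listed in both knockdown libraries, from −194 to 58 bp in knockdown 1 and from −244 to 152 bp in knockdown 2, and in no control. Peaks within 1 kb of the start covered the start base itself in 58 of 62 genes in knockdown 1 and 62 of 64 in knockdown 2, against 23 of 27 in control 1 and 53 of 56 in control 2. Upstream edges of the start peaks had medians of −265 and −245 bp from the start in knockdown and −239 and −239.5 bp in control, where negative values are upstream. Downstream edges had medians of 130.5 and 152.5 bp in knockdown and 85 and 118.5 bp in control.

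Within this common shape a few genes stood out. Atp5j reached 927 bp downstream of its start in both knockdown libraries and 818 bp in control 2. In control 1 only a peak between 507 and 802 bp downstream was listed. The upstream edge of Atp5g2 lay at −964 and −928 bp in knockdown and at −305 and −1018 bp in control 1 and control 2. At Ndufa11 the peak reached over the start in knockdown 2 only, and in both controls it ended well upstream. Its downstream edge lay at −10 and 65 bp in knockdown 1 and knockdown 2, against −423 and −415 bp in control 1 and control 2.

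**Figure D5:**
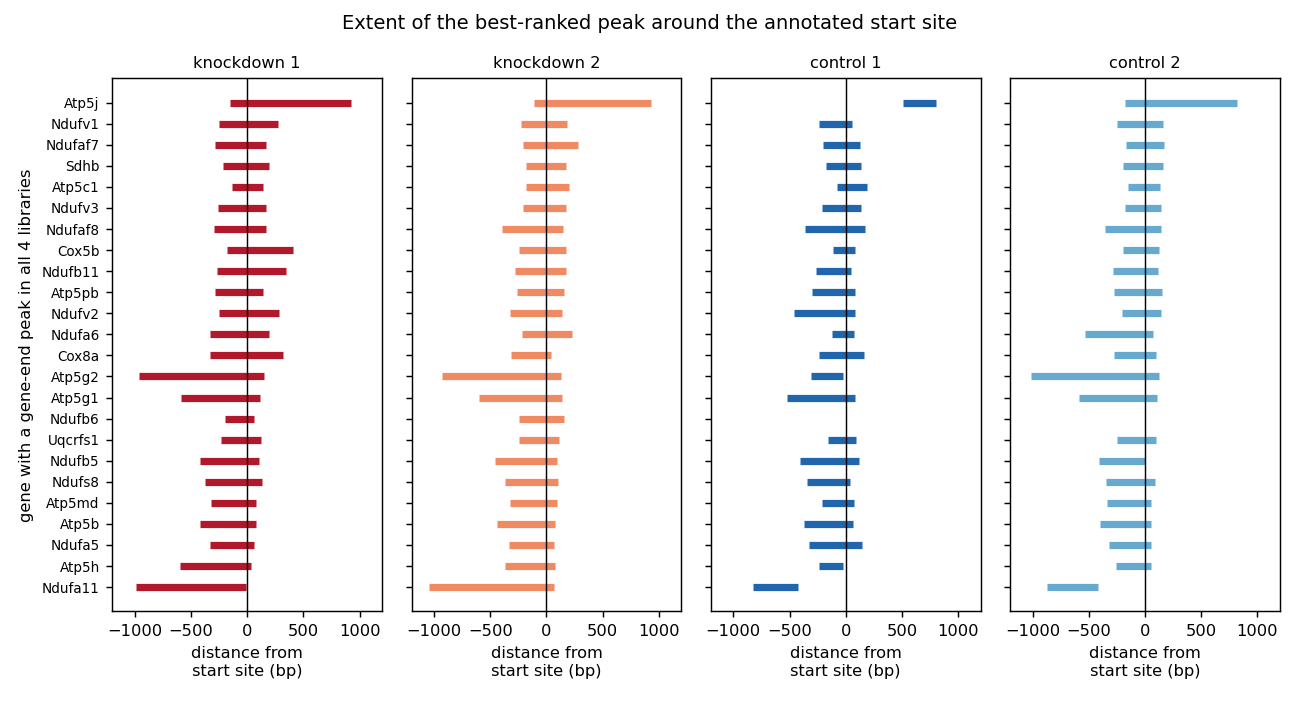
Extent of the strongest peak within 1 kb of the annotated start (bars) for the 24 genes held by all 4 libraries and listed in the promoter table, with the distance from the start in bp on the horizontal axis (negative is upstream) and 1 panel per library. Ndufb6 has no bar in the controls because no peak was listed near its start; most bars span the start, and Atp5j and Atp5g2 are long in all libraries except control 1.

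Many of these peaks lay between neighbouring genes. The strongest peak was also within 1 kb of an end of another protein-coding gene for 34 of 69 genes (49.3%) in knockdown 1 and 36 of 72 (50%) in knockdown 2, against 17 of 30 (56.7%) in control 1 and 34 of 61 (55.7%) in control 2. For all held genes the shares were 30.2% and 28.8% in knockdown and 33.7% and 30.0% in control. Neighbours that share a peak included other mitochondrial genes, such as Timm8b of the protein import system at Sdhd, Mrpl36 at Ndufs6 and Mrpl47 at Ndufb5. At such sites the peak cannot be assigned to either gene. The oxidative phosphorylation genes were also short, with a median length of 7228 bp against 17329 bp for all genes.

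Genes without a gene-end peak could still have a peak listed at their start. Of the 20 genes without one, Cox5a and Cox7a2 had a peak at the start of the promoter table in all 4 libraries, and Atp5d, the delta subunit of the ATP synthase, had one in all except control 1. Their annotated gene ends reach beyond those starts. Cox5a, a subunit with no restricted isoform among these genes, ranked at 52.8% and 51.7% in knockdown, against 91.9% and 49.8% in control. Cox7a2, the common form of its subunit, ranked at 18.3% and 28.5% in knockdown and 55.3% and 31.6% in control. Atp5d had wide peaks of 1078 and 1125 bp in knockdown and 1155 bp in control 2. Ndufs4, a subunit whose loss in mice is used as a model of Leigh syndrome, had a peak inside the gene in knockdown 1 and control 2, 15718 and 15568 bp from the nearest end. Genes without a gene-end peak also included Ndufa1, Ndufa9, Ndufb8, Ndufc2, Ndufb4b and Ndufb4c of complex I, Atp5a1, Cox6c, Cox7b and the 6 restricted isoforms Cox4i2, Cox6a2, Cox6b2, Cox7b2, Cox8b and Cox8c.

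Promoter sequence was described for the 78 genes of the RefSeq promoter table, set beside the 17274 protein-coding genes listed there. Exact matches were counted on either strand in the 300 bases of each promoter. The NRF1 motif GCATGCGC was in 12 of the 78 promoters (15.4%), against 3.64% of all promoters and 6.56% of the 3779 promoters of genes held by all libraries. The YY1 motif AAGATGGC was in 10 (12.8%), against 3.25% of all and 5.27% of those held throughout. The CRE motif TGACGTCA was in 4 (5.13%), against 2.37% of all and 4.08% of those held throughout. The ETS motif CCGGAAGT was in 5 (6.41%), above the 5.35% of all and below the 9.13% of those held throughout. The SP and KLF motif GGGCGGGG was in 15 (19.2%), against 24.1% of all promoters and 40.6% of those held throughout. The CCAAT motif CCAATCA was in 6 (7.69%), against 9.66% of all and 16.8% of those held throughout. CACCTG, the E2-box that Zeb1 binds, was in 15 promoters (19.2%), against 19.5% of all and 12.5% of those held throughout. A match is a description of the letters and not a bound site.

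Of the 5 knockdown-only genes in the table, Atp5k, Atp5l and Uqcr11 hold the NRF1 motif. It was also found in 4 of the 24 promoters of genes held throughout, namely Sdhb, Atp5g2, Ndufa6 and Ndufa11. The remaining promoters with the motif were Cox6a1, Ndufa8 and Uqcrc1, held by all except control 1, Ndufaf4, missing from control 2, and Ndufaf5, held only by the replicate 2 libraries. The motif was in none of the 13 promoters of genes without a gene-end peak. Only 3.64% of all promoters hold it, so its absence from 13 says little. These 13 are not free of peaks at the start. Cox5a and Cox7a2 had one in every library, and Atp5d had one in all except control 1. Whether the motif goes with listing was not tested. Palindromic runs such as GCGCATGCGC match on both strands, so 20 matches were counted in the 12 promoters. A match in a promoter need not lie under the listed peak. The Atp5l match began at −240 bp from the start, outside its start peaks. Those ran from −123 to 89 bp in knockdown 1 and from 83 to 282 bp in knockdown 2. The Ndufa11 match printed below began at −58 bp, outside the control peaks, which ended at −423 and −415 bp. These windows show the match in capitals with 8 bases on each side, for the 3 knockdown-only genes and then for 3 of those held throughout.
Atp5k, chr5:108434432-108434455 (- strand): actgcggcGCATGCGCctttctgg
Atp5l, chr9:44920967-44920990 (- strand): ccaataacGCATGCGCatttcccc
Uqcr11, chr10:80406810-80406833 (- strand): gccttcacGCATGCGCtatacgtc
Atp5g2, chr15:102671072-102671095 (- strand): ccggccgcGCATGCGCagagcctt
Ndufa6, chr15:82354359-82354382 (- strand): gcggtagaGCATGCGCattgcaga
Ndufa11, chr17:56717696-56717719 (+ strand): cactgcgcGCATGCGCgcacgcct

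The YY1 motif lay near the annotated start in these promoters. All 10 matches began within 50 bases of the annotated start, against 58.8% of the 580 matches in all promoters. In 9 of the 10 the motif read in the direction of the gene and began 10 to 38 bases downstream of the start, and in Atp5pb it was reversed and began 3 bases upstream. The letters contain an ATG, and whether it is the start codon was not examined. The windows show the motif in capitals for genes held by all 4 libraries (Ndufaf8 and Atp5pb), by all except control 1 (Ndufa3, Ndufs6 and Ndufs7) and by none at a gene end (Ndufa9), so the letters occur across the classes of listing.
Ndufaf8, chr11:120098936-120098959 (+ strand): cagggcccAAGATGGCggcgccct
Atp5pb, chr3:105959251-105959274 (- strand): tgcgagcgGCCATCTTgctcctgc
Ndufa3, chr7:3617387-3617410 (+ strand): ccaagaacAAGATGGCcgggagta
Ndufs6, chr13:73328434-73328457 (- strand): tcaccggcAAGATGGCggcggtgc
Ndufs7, chr10:80249465-80249488 (+ strand): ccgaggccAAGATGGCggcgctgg
Ndufa9, chr6:126849100-126849123 (- strand): tgtgggagAAGATGGCggccgccg

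The same promoters were rich in CpG. The median ratio of observed to expected CpG was 0.831 in the 78 promoters, against 0.585 in all promoters and 0.824 in those held by all libraries. The median GC content was 58.5%, against 56.3% in all promoters and 63.0% in those held throughout. For the 24 oxidative phosphorylation promoters of genes held throughout, the medians were 60.3% GC and 0.849 for the CpG ratio. The 13 promoters of genes without a gene-end peak had medians of 52.0% GC and 0.696 for the CpG ratio. They include Cox5a, Cox7a2 and Atp5d, which had peaks at their starts.

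For the other genes of the pathway, control 2 held at least as many as knockdown 1, unlike for the 96 genes. Cycs, which encodes cytochrome c, was in all 4 lists at 16.7% and 6.84% in knockdown and 10.6% and 18.1% in control. Cyc1, the cytochrome subunit of complex III, was held only by the replicate 2 libraries, at 33.9% in knockdown 2 and 35.7% in control 2. Of 35 further assembly factors, knockdown 1 and knockdown 2 held 28 and 30, against 18 in control 1 and 30 in control 2. Among these only Uqcc3, a complex III factor, was knockdown-only, and 18 were held throughout, among them Sco1, a copper chaperone of complex IV. Of 15 regulators and genes of mitochondrial genome maintenance, 12 were held by each knockdown library, against 8 in control 1 and 12 in control 2. Those in all 4 lists were Esrra, Gabpa, Ppargc1a, Pprc1, Tfam, Tfb1m, Tfb2m and Yy1, while Nrf1, Polg2, Polrmt and Twnk were missing from control 1 alone. Esrra and Ppargc1a encode a nuclear receptor and a coactivator of mitochondrial genes, and Tfam packages mitochondrial DNA. Ribosomal protein genes, another set active in nearly every cell, were held in 65 and 70 of 85 cases in knockdown 1 and knockdown 2, against 39 in control 1 and 65 in control 2. Their knockdown-only genes were 2 of 85 (2.35%).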

How the data were processed

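ATAC-seq peak lists of 4 libraries (2 knockdown, 2 control) on mm10 were used as deposited, 1 list per library and not pooled. The submitters' processing notes name MACS2 2.1.1, Bowtie2 2.3.2, Trimmomatic 0.36, SAMtools 1.3, bedtools 2.26.0 and Picard 2.9.2. Their roles, settings, any shift of reads for the transposase and the peak filter are not given in the sources used here. Each deposited peak has the authors' fold enrichment, which is a ratio to the background of that library. The deposited lists also give a −log10 p and a −log10 q, with every −log10 q above 1, and the score column equals the −log10 q times 10, capped at 1000. Because lists were called separately, these values only ranked and filtered peaks within a list. Groups and replicate numbers came from the titles.

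Gene ends were widened by 1 kb, and promoters and strands came from RefSeq tables on GRCm38.p6. There 18 of the 96 genes were not matched by gene identifier, and 1 promoter per gene was used. Group values were compared with two-sided exact permutation tests over libraries, with no p below 0.333. The genes, lists and tests were chosen with earlier results of these data known. Genes were named when listed by 1 group or 1 replicate number only, when among the 5 best or 5 worst by weakest rank or the 5 widest by smallest width, when unlisted everywhere, or when isoforms or complex II genes; others serve as examples chosen after their values were seen. The gene lists of cell types and of other pathway genes came from textbook knowledge. Some results for single genes are not reported here. Functions were tested on simulated data. Python 3.11.15, numpy 2.4.6, pandas 2.3.3 and matplotlib 3.10.9 were used. Alternatives were other windows, starts only, gene ends or starts, −log10 q of at least 3, lists of 7608 peaks, structural subunits only, ranking by fold, widest peaks, each library left out and the replicate number as a block.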

Additional observations from a re-analysis of the deposited data

How the results depend on the processing

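The mean number of held genes was higher in knockdown under every alternative run. The difference lay between 9.5 and 40.5 genes with each library left out. With lists of 7608 peaks it was 5.5 (exact permutation p = 1.00), and there control 2 held 43 genes, above the 42 of each knockdown library. The exact p lay between 0.333 and 1.00 over the alternatives. With the replicate number as a block the difference stayed at 25 genes, and its exact permutation p of 0.5 is the smallest possible. The main comparison did not take numbers as pairs, since whether they pair the libraries is not stated. Deviations of same-numbered libraries correlated at 0.120 over all genes and 0.203 over the 96 genes. With only 2 pairs these values cannot settle the pairing, and photoreceptor markers did follow the replicate number. The width difference lay between 67 and 96.5 bp with each library left out and was 81.75 bp with the block (p = 0.5, exact). The rank difference (3.178 points) turned to −10.38 over genes held by all libraries, and lay between −1.814 and 8.170 with each library left out; the cause was not tested. Knockdown-only genes numbered 3 with lists of 7608 peaks, against 1.48% of all genes, and 10 to 36 with each library left out. Without knockdown 1 they were 10.4% of the 96 genes and 8.11% of all genes, and without knockdown 2 they were 11.5% and 4.94%. Without control 1 the shares were 10.4% and 4.16%, and without control 2 they were 37.5% and 16.4%. Control-only genes numbered 1 with lists of 7608 peaks, against 0.536% of all genes. They numbered 0 to 1 with each library left out, against 0.0740% to 1.23% of all genes. Genes held by all libraries numbered 18 at −log10 q of at least 3, against 12.6% of all genes. They numbered 28 to 56 with each library left out, against 21.0% to 33.5% of all genes, since fewer lists then have to hold the gene. Read depth is unknown, and a list ends where its own library's signal does, so each absence of a peak also reflects the list's length.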
